A study of Mus musculus with 18 samples.

Results

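The colony-stimulating factor genes form a small family of 3 ligands and 5 receptor subunits. The members were taken by name: the ligands Csf1, Csf2 and Csf3, which encode M-CSF, GM-CSF and G-CSF, and the receptor genes Csf1r, Csf2ra, Csf2rb, Csf2rb2 and Csf3r. All 8 were found among the 50600 gene IDs of the count table, and all 8 were among the 15663 genes with enough counts to be tested. They were measured by mRNA-seq in mouse bone marrow-derived macrophages (BMDMs), cells grown from bone marrow for 8 days with recombinant GM-CSF, so every group had been cultured in the protein product of one of these genes.

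The 18 libraries fell into 6 groups of 3. BMDMs came from WT mice or from IRF5 KO mice, which lack the transcription factor IRF5. In each genotype 1 group was not stimulated, 1 was given DMSO and 1 was given 3.5 μM defactinib, an inhibitor of the kinases PYK2 and FAK, for 1 h before lipopolysaccharide (LPS, a bacterial cell wall component that activates TLR4) at 100 ng/ml for 2 h. No group was given defactinib without LPS. In comparisons of LPS with defactinib against unstimulated cells, an effect of defactinib alone therefore cannot be told apart from an altered response to LPS. The sample labels name DMSO for the unstimulated groups, whereas the headers of the count table call them untreated, so whether these cells received the vehicle was not settled. The labels give neither the age of the donors, nor the part of Irf5 that is deleted, nor whether replicates came from separate mice, so p-values measure the spread between these libraries, which may be technical.

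M-CSF signals through the receptor tyrosine kinase encoded by Csf1r and maintains macrophages in most tissues. GM-CSF binds an α chain, encoded by Csf2ra, which signals with the common β chain encoded by Csf2rb; mice also have Csf2rb2, whose β chain pairs with the IL-3 receptor. G-CSF binds the product of Csf3r and drives the formation of neutrophils. Activated macrophages can themselves make all of these ligands, and the receptors set how the cells respond to them.

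Counted read pairs ranged from 39282181 to 61949143 per library. The 7 macrophage markers were above 1 CPM (counts scaled to a common library total with TMM factors) in every group, with a summed level of 8953 to 17950 CPM, whereas the 7 markers of T, B and NK cells summed to at most 1.09 CPM and the 5 stromal markers to at most 1.30 CPM in a library. The 6 dendritic cell markers summed to 1971 to 2953 CPM, most of it Itgax. Irf5, counted over the whole gene, was at 335 to 397 CPM in unstimulated IRF5 KO and at 587 to 650 CPM in unstimulated WT libraries, and the ranges overlapped after LPS, with 345 to 435 CPM in IRF5 KO and 434 to 475 CPM in WT. With defactinib the WT libraries had 213, 234 and 379 CPM and the IRF5 KO libraries 364, 392 and 353 CPM, so that 2 of the 3 WT libraries were below every IRF5 KO library there (log2 WT minus IRF5 KO -0.42 ± 0.16, edgeR adjusted p = 0.0545) and this count checks the genotype labels in the unstimulated groups alone. In WT Irf5 was lower after LPS with defactinib than in unstimulated cells (-1.16 ± 0.17, edgeR adjusted p = 5.92e-05). Replicate 3 of the IRF5 KO group given LPS and DMSO stood apart from replicates 1 and 2 of its group, in the ligands and over the counted genes as a whole. The chi-square per gene, a measure of spread beyond sampling noise, was 441 and 425 with replicate 3 and 2.33 between replicates 1 and 2. Whether the label of replicate 3 is right was not settled. Tests that rest on this group are given also without replicate 3 where it changes a call or moves the value by over 1.5 times. Group means, orders and correlations include it.

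The sequences just before the gene starts are shown for Csf1 and Csf2, the ligand genes that differed between the genotypes after LPS, and for 2 receptor subunits that differed in opposite directions between the genotypes. RefSeq windows (build GRCm38.p6) were matched by symbol for 5 of the 8 members, namely Csf1, Csf2, Csf2ra, Csf2rb2 and Csf3r; Csf3, Csf1r and Csf2rb had no entry. Each line gives the 250 bases before the RefSeq start on the strand of the gene, and capitals mark letters that match an NF-kB-like motif (GGGA, any 4 bases, then CC), a STAT-like motif (TTCNNNGAA), a PU.1-like motif (GAGGAA), an AP-1-like motif (TGANTCA), an ISRE-like motif (GAAA, any 2 bases, then GAAA) or a TATA-like motif (TATAAA) on either strand. No match to one motif overlapped a match to another.
Csf1 (chr3:107760470-107760719, minus strand): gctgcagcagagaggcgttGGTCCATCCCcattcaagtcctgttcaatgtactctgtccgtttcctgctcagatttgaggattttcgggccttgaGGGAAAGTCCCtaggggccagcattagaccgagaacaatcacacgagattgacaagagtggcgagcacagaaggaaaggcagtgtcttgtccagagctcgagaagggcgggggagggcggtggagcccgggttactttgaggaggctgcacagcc
Csf2 (chr11:54249900-54250149, minus strand): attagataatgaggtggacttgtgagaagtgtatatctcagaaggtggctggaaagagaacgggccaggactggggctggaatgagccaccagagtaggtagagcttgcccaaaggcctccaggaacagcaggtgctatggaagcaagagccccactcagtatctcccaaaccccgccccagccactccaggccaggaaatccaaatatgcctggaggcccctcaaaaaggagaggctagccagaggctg
Csf2ra (chr19:61228419-61228668, minus strand): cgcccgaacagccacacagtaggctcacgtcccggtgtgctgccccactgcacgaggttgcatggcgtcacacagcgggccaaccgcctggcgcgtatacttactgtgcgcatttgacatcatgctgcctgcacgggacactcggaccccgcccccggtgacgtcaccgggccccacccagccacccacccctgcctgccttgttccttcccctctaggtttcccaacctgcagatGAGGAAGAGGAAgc
Csf2rb2 (chr15:78305722-78305971, minus strand): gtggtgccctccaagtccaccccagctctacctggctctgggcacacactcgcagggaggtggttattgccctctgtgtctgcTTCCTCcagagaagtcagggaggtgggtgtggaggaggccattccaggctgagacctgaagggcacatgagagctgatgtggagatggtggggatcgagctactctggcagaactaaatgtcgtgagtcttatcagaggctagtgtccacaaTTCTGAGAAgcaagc

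The Csf1 window held 3 matches to the NF-kB-like motif, at positions -231 to -222, -155 to -146 and -154 to -145 counted back from the start, of which the last pair overlap each other; 17.6% of the 32841 windows of the same length held this motif. The Csf2 window held none of the 6 motifs. It ends 232 bases upstream of the start that the count table uses for Csf2, so it covers sequence farther from the gene than the other windows do. The Csf2ra window held 2 adjoining PU.1-like matches, a motif found in 23.3% of windows, and the Csf2rb2 window held 1 PU.1-like and 1 STAT-like match, the latter motif being in 7.02% of windows. The AP-1-like, ISRE-like and TATA-like motifs, held by 6.75%, 2.98% and 12.4% of windows, were not matched in the windows of these 4 genes. A match describes letters only.

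In WT macrophages LPS raised all 3 ligand genes, and 3 of the 8 members passed the test (edgeR quasi-likelihood test, Benjamini-Hochberg adjusted p under 0.05 and a change of more than 2-fold), against 21.3% of all tested genes. None of the 5 receptor genes changed by more than 2-fold. In a bulk library fewer cells of a type and less RNA per cell cannot be told apart.

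Csf1 (ENSMUSG00000014599, chr3:107741048-107760469; gene positions are on mm10) was the abundant ligand gene. It stood at 122, 122 and 174 CPM in the unstimulated WT libraries, at 548, 426 and 495 CPM after LPS with DMSO, and at 49.0, 34.0 and 48.7 CPM after LPS with defactinib. The 3 groups did not overlap: every library with LPS and DMSO lay above, and every library with defactinib lay below, the unstimulated range. The log2 fold change with LPS was 1.81 ± 0.36 (SE, n = 3, edgeR adjusted p = 0.000763), and that of defactinib against DMSO was -3.48 ± 0.38 (edgeR adjusted p = 3.55e-06). Against unstimulated cells, Csf1 after LPS with defactinib fell by 1.67 on the log2 scale (SE 0.36, edgeR adjusted p = 0.00149).

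Among the 6 dendritic cell markers, 2 had group means in the same order in WT, Ccr7 with overlap between the unstimulated and defactinib libraries. Ccr7 was at 32.9 to 41.9 CPM before LPS, 266 to 368 CPM after LPS with DMSO and 8.78 to 47.6 CPM with defactinib, and Zbtb46 was at 59.4 to 62.02, 86.5 to 97.2 and 19.99 to 30.2 CPM. Dpp4 was highest with defactinib (22.7 to 37.4 CPM), Flt3 was higher in both stimulated groups, and Itgax and Cd209a overlapped between unstimulated libraries and those with defactinib. The order was not particular to this list. Mertk, alone among the 7 macrophage markers, had it too, at 63.0 to 68.9, 124 to 182 and 37.2 to 65.2 CPM. The summed list was at 2371 to 2542, 2828 to 2946 and 2328 to 2953 CPM in these groups, and the part of dendritic cells in the level of Csf1 was not tested.

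In IRF5 KO macrophages Csf1 was at 152, 123 and 158 CPM in unstimulated libraries, and the genotypes overlapped there (log2 difference WT minus IRF5 KO -0.05 ± 0.35, edgeR adjusted p = 0.964). After LPS with DMSO the 3 IRF5 KO libraries had 107, 100.7 and 343 CPM, and with defactinib they had 159, 167 and 152 CPM. Replicates 1 and 2 lay below the unstimulated range, replicate 3 lay far above it, and the defactinib libraries lay within or just above it. The log2 fold change with LPS was 0.35 ± 0.35 over the 3 libraries (edgeR adjusted p = 0.444) and -0.48 ± 0.17 without replicate 3 (edgeR adjusted p = 0.0268, under 2-fold). Defactinib against DMSO gave -0.20 ± 0.35 over the 3 libraries (edgeR adjusted p = 0.77), which did not pass the test. Without replicate 3 it gave 0.62 ± 0.17, in the other direction (edgeR adjusted p = 0.0407, under 2-fold).

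After LPS and DMSO all WT libraries had more Csf1 than all IRF5 KO libraries, with a log2 difference of 1.42 ± 0.35 (edgeR adjusted p = 0.00396) that was 2.24 ± 0.19 without replicate 3 and 0.50 ± 0.22 (edgeR adjusted p = 0.101) with replicate 3 as the only library of its group, whose spread is then assumed from the other groups. Under LPS with defactinib the order was turned, and Csf1 was lower in WT by 1.86 ± 0.36 on the log2 scale (edgeR adjusted p = 0.000876).

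Csf2 (ENSMUSG00000018916, chr11:54247271-54249667), which encodes the growth factor added to these cultures, was at very low counts. It had 0 read pairs in the 3 unstimulated WT libraries and 25, 10 and 9 read pairs after LPS with DMSO, or 0.58, 0.26 and 0.23 CPM. The WT libraries with LPS and defactinib had 0.88, 0.84 and 0.41 CPM. Every LPS-stimulated WT library thus had some Csf2, and the libraries with and without defactinib overlapped. Summed over the group, the level was at least 19.4-fold higher with LPS and DMSO than a floor of 3 counts over the unstimulated group allows. With LPS and defactinib it was at least 38.7-fold higher. LPS against unstimulated passed the test in both cases (edgeR adjusted p = 0.000909 and 0.000192). With only the groups compared, Csf2 with LPS and DMSO did not pass the filter on counts and was not tested. That call therefore needs the counts of the other groups. Defactinib against DMSO gave a log2 difference of 0.99 ± 0.61 (edgeR adjusted p = 0.176).

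The IRF5 KO macrophages had more Csf2 after LPS than WT cells in every library. The unstimulated IRF5 KO libraries had 0.05, 0.06 and 0 CPM, those with LPS and DMSO 6.37, 5.89 and 1.25 CPM, and those with LPS and defactinib 5.68, 5.69 and 5.60 CPM. Replicate 3 of LPS with DMSO was the lowest stimulated IRF5 KO library, yet it was above the highest WT library. From the summed counts of 549 against 6, the ratio of LPS with DMSO to unstimulated was 117 (95% counting interval 53.6 to 322), and for LPS with defactinib it was 158 (72.1 to 431), intervals that cover counting error only. In the fit, LPS with DMSO gave a log2 fold change of 6.87 ± 0.77 in IRF5 KO, 7.31 ± 0.47 without replicate 3 and 5.04 ± 0.63 with replicate 3 alone, and passed the test each time. WT was lower than IRF5 KO by 3.64 ± 0.60 on the log2 scale with DMSO (edgeR adjusted p = 0.000242) and by 2.98 ± 0.56 with defactinib (edgeR adjusted p = 0.000934). With DMSO the difference was -4.08 without replicate 3 and -1.81 with replicate 3 alone, and it passed the test each time. Because WT cells had no Csf2 count before LPS, how far WT and IRF5 KO responses to LPS differ was not read from the fit for this gene.

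Csf3 (ENSMUSG00000038067, chr11:98701263-98703629) followed Csf1 in the WT groups at a far lower level. It stood at 0.22, 0.10 and 0.23 CPM before stimulation, at 3.11, 3.02 and 2.72 CPM after LPS with DMSO, and at 0.37, 0.14 and 0.26 CPM after LPS with defactinib. The libraries with LPS and DMSO lay above all others of this genotype, while the defactinib libraries overlapped the unstimulated ones. The log2 fold change was 3.996 ± 0.75 with LPS (edgeR adjusted p = 0.000496) and -3.50 ± 0.74 with defactinib against DMSO (edgeR adjusted p = 0.000947). The counts behind these values are small, with a total of 29 read pairs in the unstimulated WT group and 359 in the group given LPS and DMSO.

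In the IRF5 KO groups Csf3 depended on 1 library. It was at 0.28, 0.12 and 0.28 CPM before stimulation, at 0.32, 0.32 and 3.31 CPM after LPS with DMSO, and at 0.89, 0.99 and 0.98 CPM after LPS with defactinib. Replicate 3 was 10.4 times the mean of replicates 1 and 2 and above every WT library, while replicates 1 and 2 were just above the unstimulated range and the defactinib libraries lay between. The fold change with LPS passed the test with replicate 3 (log2 2.55 ± 0.72, edgeR adjusted p = 0.0149) and not without it (0.48 ± 0.44, edgeR adjusted p = 0.363), nor without replicate 2 of the unstimulated IRF5 KO group (2.25 ± 0.83, edgeR adjusted p = 0.0571). LPS with defactinib against unstimulated gave 2.07 ± 0.73 (edgeR adjusted p = 0.0258), and the call was lost on leaving out replicate 2 or 3 of the unstimulated or of the defactinib group (edgeR adjusted p from 0.0508 to 0.0943). Defactinib against DMSO was at -0.49 ± 0.65 with the 3 libraries (edgeR adjusted p = 0.688) and at 1.58 ± 0.40 without replicate 3 (edgeR adjusted p = 0.0225), so that the direction rests on that library. The WT against IRF5 KO difference after LPS and DMSO was likewise 1.14 ± 0.64 (edgeR adjusted p = 0.146) with it and 3.21 ± 0.39 (edgeR adjusted p = 1.68e-06) without it. With all libraries limma-voom called this difference (1.91 ± 0.55, limma-voom adjusted p = 0.00857) and did not call the change with LPS in IRF5 KO (1.84 ± 0.79, limma-voom adjusted p = 0.0761). After LPS with defactinib the WT libraries were below all IRF5 KO libraries (-1.87 ± 0.74, edgeR adjusted p = 0.0593, not called).

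**Figure D1:**
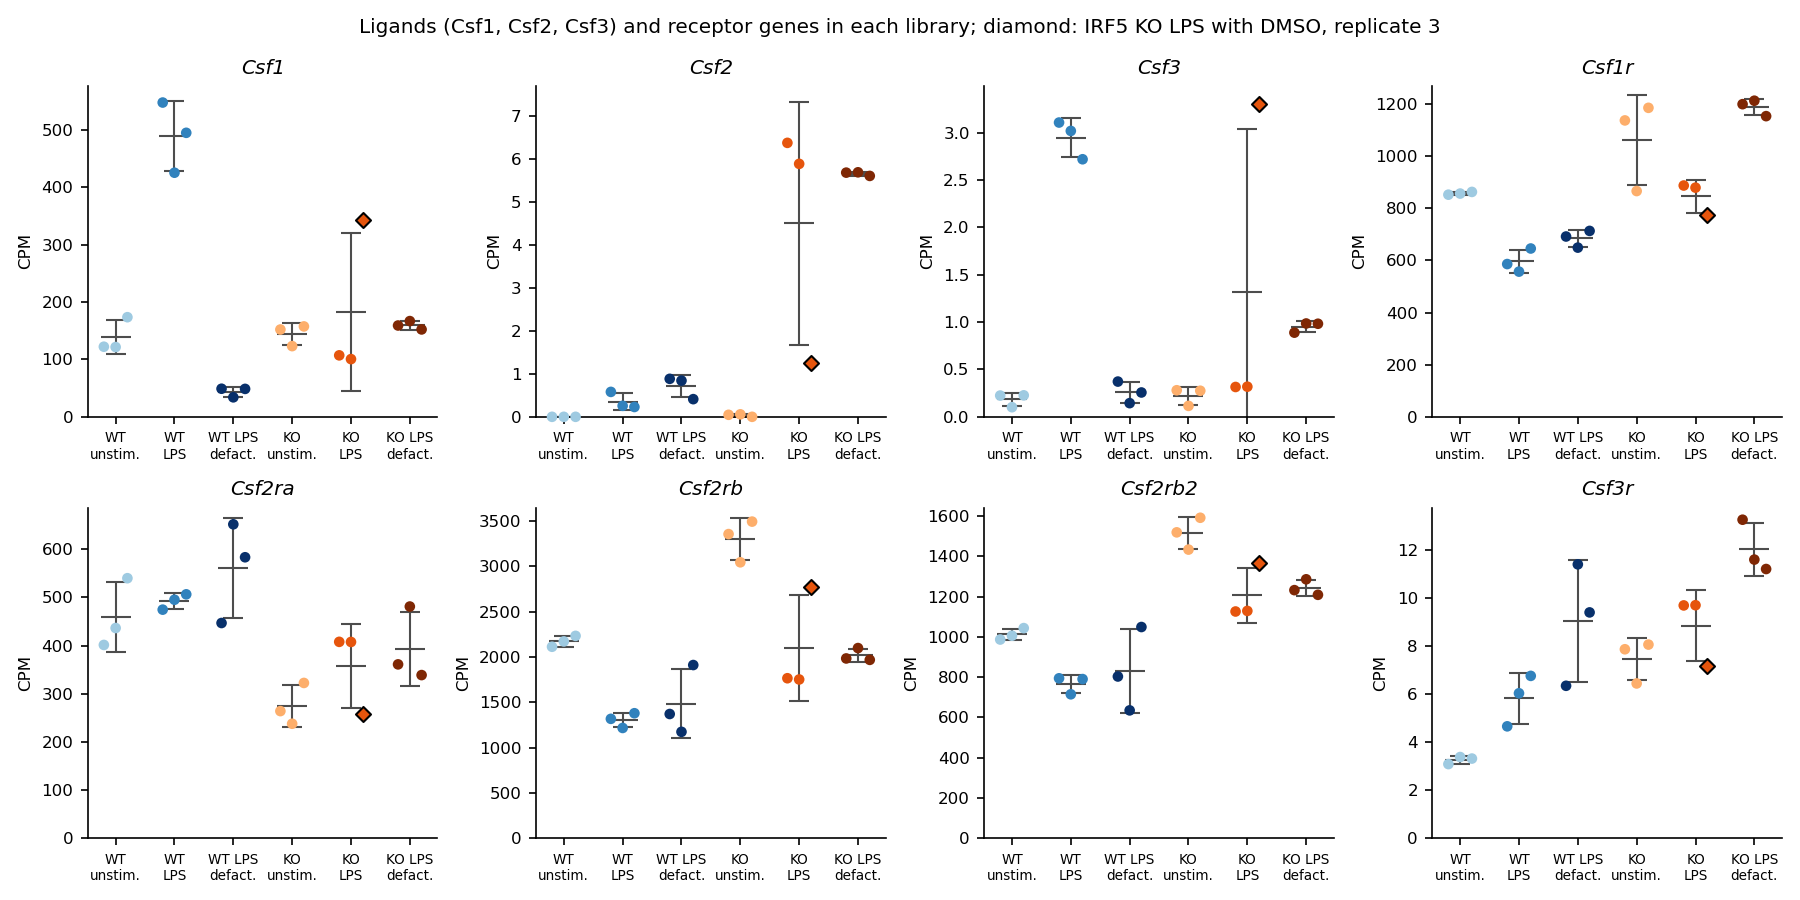
Level of each member in each of the 18 libraries, in CPM on linear axes that start at 0; points are libraries, the bar is the group mean and the whiskers are 1 SD, cut off at 0 for Csf3 in IRF5 KO with LPS and DMSO. Csf1 and Csf3 are high in the 3 WT libraries with LPS and DMSO and in replicate 3 of the IRF5 KO group with LPS and DMSO (diamond, 343 CPM for Csf1), and Csf2 is high in the other IRF5 KO libraries with LPS.

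The replicate that stood apart did so in all 3 ligands and in genes outside the family. Socs1 was at 65.5 CPM in it against 4.48 and 3.26 CPM in replicates 1 and 2, and Socs3 at 219 against 732 and 741 CPM. Ccl22 differed less, at 6803 against 6064 and 6072 CPM. In replicate 3 Csf1 was 3.30 times, Csf3 10.4 times and Csf2 0.204 times the mean of replicates 1 and 2. Among the receptor genes its ratio to that mean ran from 0.632 for Csf2ra to 1.58 for Csf2rb. The plot of Csf2 and Csf3 against Csf1 in the stimulated libraries places the library nearer to the WT libraries with LPS and DMSO than to its own group for Csf1 and Csf3, and between the genotypes for Csf2. Its ratio of Csf2rb to Csf2ra per length, 4.18, was close to the unstimulated IRF5 KO libraries, and so was Cxcr2, a neutrophil chemokine receptor gene, at 6.24 CPM against 5.25 to 9.62 CPM there and at most 0.848 CPM in the WT and defactinib groups with LPS. Its summed level of the 8 mast cell and basophil markers was 102 CPM, against 50.2 CPM in the lowest library of its group. Gata2 (51.5 CPM), Hdc (28.9 CPM) and Kit (20.2 CPM) carried this sum, while Cpa3 (0.372 CPM) and Mcpt8 (0.157 CPM) were at their lowest in the group in this library, Ms4a2 (0.137 CPM) and Prss34 (0.841 CPM) were at their highest, and Fcer1a, a defining gene of both cell types, was at 0.0485 CPM or less in all 3. In WT with LPS and DMSO Gata2 was at 3.18 to 4.32 CPM. Adgre1, a macrophage marker, was at 364.5 CPM in replicate 3, against 83.0 to 100.5 CPM in WT with LPS and DMSO and 291 to 320 CPM in unstimulated IRF5 KO. The part of mast cells and basophils, or of an exchanged label, in the result was not tested.

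**Figure D2:**
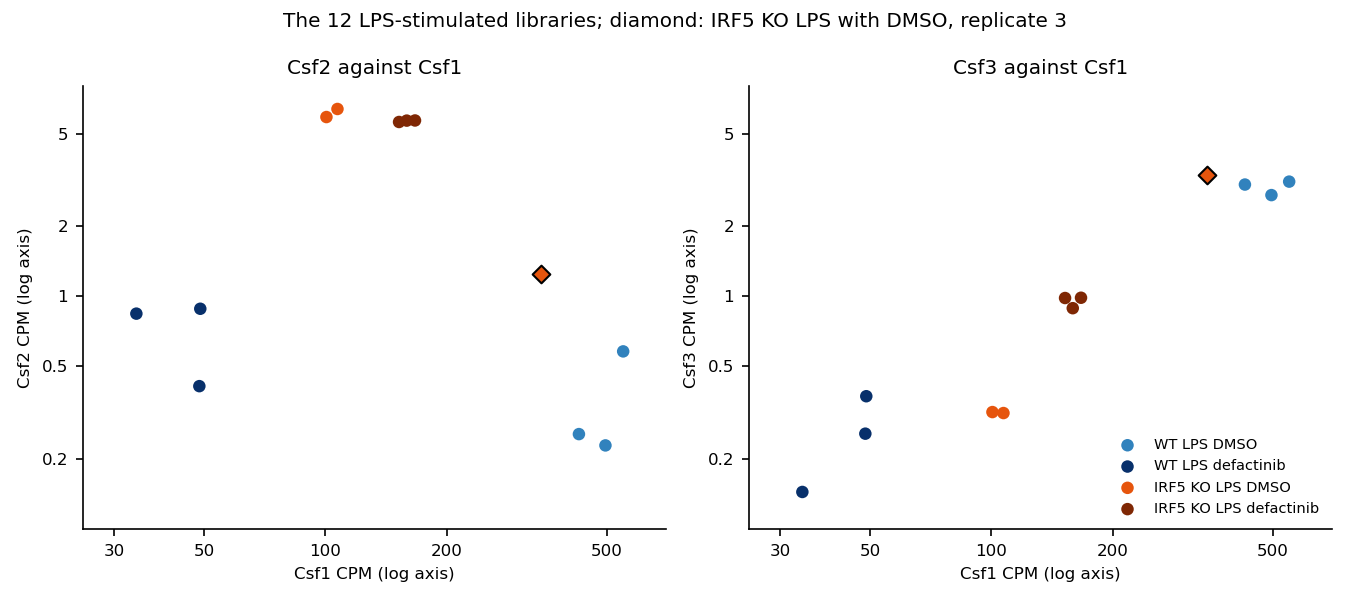
Csf2 (left) and Csf3 (right) against Csf1 in the 12 LPS-stimulated libraries, in CPM on log axes, coloured by group. Replicate 3 of the IRF5 KO group with LPS and DMSO (diamond) lies at 343 CPM of Csf1, 1.25 CPM of Csf2 and 3.31 CPM of Csf3, away from replicates 1 and 2.

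In IRF5 KO macrophages as a whole, 2 of the 8 members, Csf2 and Csf3, passed the test of LPS with DMSO against unstimulated, where 13.3% of all tested genes did, and 1 did without replicate 3, Csf2, where 26.2% of all tested genes did. Defactinib against DMSO changed 2 members in WT, Csf1 and Csf3, both lower, against 29.1% of all tested genes. In IRF5 KO it changed 0 members by edgeR's quasi-likelihood test, with 2 at an unadjusted p under 0.05 and 0 by DESeq2 or limma-voom, and 0.919% of all tested genes were called; without replicate 3 it changed 1, Csf3, against 1.45% of all tested genes. LPS with defactinib against unstimulated changed 3 members in WT (Csf1 lower, Csf2 and Csf3r higher), against 24.9% of all genes, and 2 in IRF5 KO (Csf2 and Csf3, both higher), against 24%. These comparisons share their control libraries, so their values are set side by side and not counted as separate evidence.

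The tests of the difference between the genotypes in these responses gave calls for Csf1 and Csf3 only. The log2 effect of defactinib in WT minus that in IRF5 KO was -3.28 ± 0.50 for Csf1 (edgeR adjusted p = 0.000151) and -3.01 ± 0.98 for Csf3 (edgeR adjusted p = 0.0244), where 22.8% of all tested genes passed. Without replicate 2 of the WT group with LPS and defactinib, the Csf3 call was lost (-2.70 ± 1.06, edgeR adjusted p = 0.0645). Both calls held without replicate 3 of the IRF5 KO group with LPS and DMSO (-4.10 and -5.08) and with it as the only library (-2.35 and -1.67). For the response to LPS, 0 members passed by edgeR, where 9.83% of all tested genes did, with 1 at an unadjusted p under 0.05 and 1 each by DESeq2 and limma-voom. That member was Csf1, whose LPS response was larger in WT by 1.47 ± 0.49 (edgeR adjusted p = 0.0530) and by 2.29 ± 0.24 without replicate 3 (edgeR adjusted p = 9.09e-07); without that library Csf3 passed as well, at 3.52 ± 0.56 (edgeR adjusted p = 7.21e-05).

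**Figure D3:**
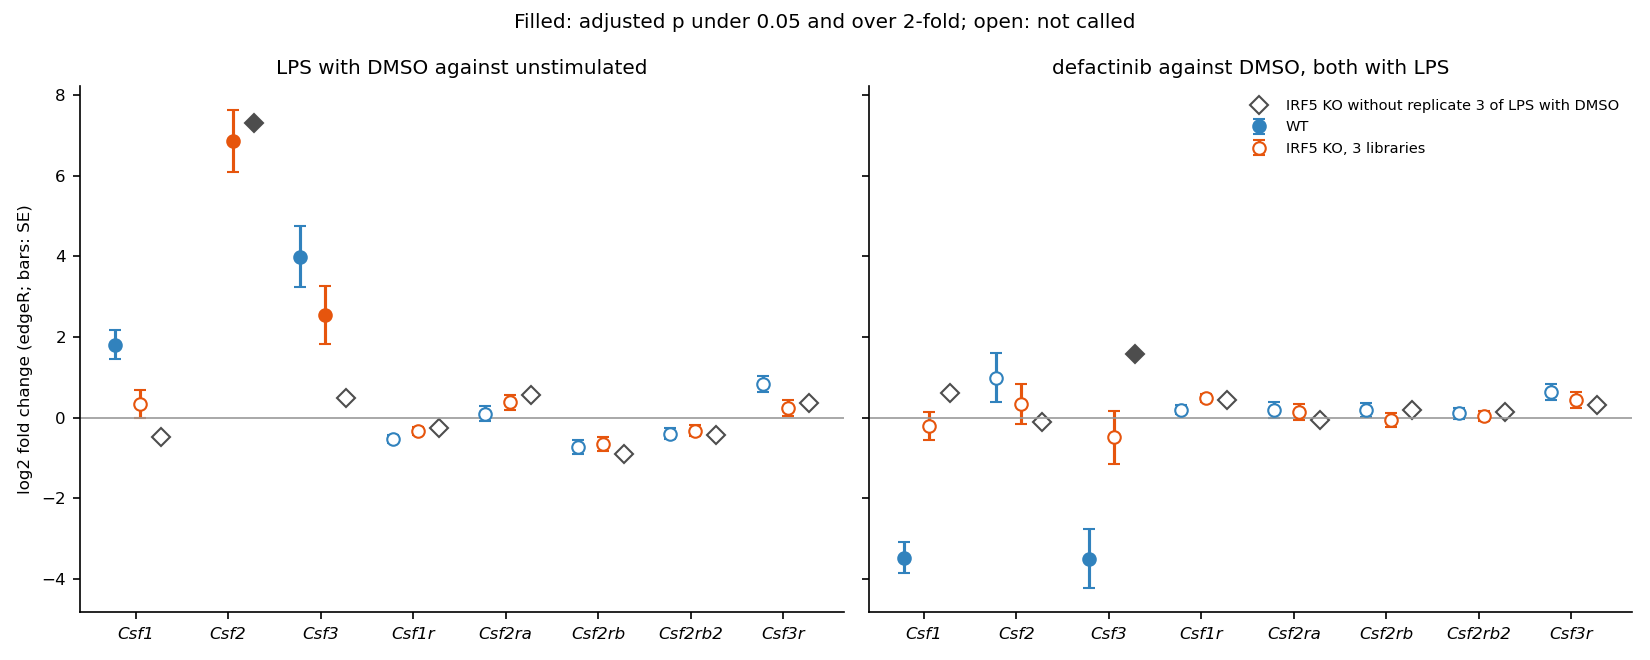
log2 fold change of each member for LPS with DMSO against unstimulated (left) and for defactinib against DMSO, both with LPS (right), in WT (blue) and IRF5 KO (orange, with SE bars), and in IRF5 KO without replicate 3 of LPS with DMSO (diamonds); filled marks passed the test. Csf2 in WT against unstimulated is not drawn because that group had no counts. Csf1 and Csf3 lie at -3.48 and -3.50 with defactinib in WT, and the receptor genes stay within 1 of 0 in every comparison drawn.

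The receptor genes were the abundant members. Per exon length, Csf2rb stood at 456 FPKM, Csf2ra at 248 FPKM, Csf2rb2 at 219 FPKM and Csf1r at 175 FPKM on average in unstimulated WT cells, against 26.4 FPKM for Csf1 and 0.904 FPKM for Csf3r. With LPS the changes in these receptors were less than 2-fold in both genotypes, and several were larger than the spread between replicates.

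Csf2rb (ENSMUSG00000071713, chr15:78325990-78351000), the common β chain gene, was lower in all LPS-stimulated WT libraries than in the unstimulated ones. It was at 2112, 2171 and 2232 CPM before LPS and at 1317, 1217 and 1379 CPM after LPS with DMSO, without overlap (log2 difference -0.74 ± 0.17, edgeR adjusted p = 0.00273, under 2-fold). The defactinib libraries, at 1371, 1174 and 1911 CPM, overlapped those with DMSO. In IRF5 KO the levels were 3355, 3044 and 3492 CPM before LPS, 1765, 1752 and 2774 CPM with LPS and DMSO, and 1983, 2098 and 1968 CPM with defactinib. IRF5 KO libraries exceeded WT libraries without overlap under each of the 3 conditions, at a log2 difference WT minus IRF5 KO of -0.60 ± 0.17 before LPS (edgeR adjusted p = 0.0259) and -0.68 ± 0.17 after LPS with DMSO (edgeR adjusted p = 0.00403), both under 2-fold. Without replicate 3 the latter was -0.43 ± 0.14 (edgeR adjusted p = 0.0104), and with replicate 3 as the only library of its group it was -1.11 ± 0.17 and called. With defactinib it was -0.44 ± 0.17 (edgeR adjusted p = 0.0565).

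Csf2rb2 (ENSMUSG00000071714, chr15:78282517-78305603) lies beside Csf2rb on the other strand and is its close copy: 2.30% of the windows of 150 bases in Csf2rb transcripts, and 3.34% of those in Csf2rb2 transcripts, are found in the other gene. Since only uniquely mapped pairs were counted, pairs from such stretches were lost to both genes, and the level of each is uncertain to that extent. Csf2rb2 was at 987, 1005 and 1043 CPM in unstimulated WT and at 1518, 1433 and 1591 CPM in unstimulated IRF5 KO libraries. It went from there to 794, 715 and 790 CPM in WT and to 1126, 1129 and 1364 CPM in IRF5 KO after LPS with DMSO. With LPS and defactinib it was at 803, 635 and 1049 CPM in WT and at 1232, 1285 and 1208 CPM in IRF5 KO. The unstimulated IRF5 KO libraries were the highest of all groups, and the WT libraries with LPS and DMSO were below the unstimulated WT ones, whereas replicate 3 of WT with LPS and defactinib was the highest WT library. The difference WT minus IRF5 KO was between -0.65 and -0.58 on the log2 scale under the 3 conditions (edgeR adjusted p from 0.00102 to 0.00764), under 2-fold each time; after LPS with DMSO it was -0.56 without replicate 3.

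Csf2ra (ENSMUSG00000059326, chr19:61224402-61228418), the GM-CSF-specific α chain gene, differed between the genotypes the other way. It was at 401, 437 and 540 CPM in unstimulated WT and at 264, 238 and 323 CPM in unstimulated IRF5 KO libraries, so that the groups did not overlap (log2 difference 0.74 ± 0.19, edgeR adjusted p = 0.0151, under 2-fold). After LPS with DMSO the WT libraries had 475, 495 and 506 CPM and the IRF5 KO libraries 408, 408 and 258 CPM (0.46 ± 0.19, edgeR adjusted p = 0.0555), a difference that was 0.27 ± 0.17 (edgeR adjusted p = 0.181) without replicate 3 of IRF5 KO and 0.91 ± 0.25 (edgeR adjusted p = 0.00949) with it as the only library. With defactinib the levels were 447, 652 and 583 CPM in WT and 361, 481 and 339 CPM in IRF5 KO, and the genotypes overlapped (0.51 ± 0.19, edgeR adjusted p = 0.0488, under 2-fold). LPS itself moved Csf2ra by 0.10 ± 0.19 in WT (edgeR adjusted p = 0.718) and by 0.38 ± 0.19 in IRF5 KO (edgeR adjusted p = 0.125), neither past the test; the latter was 0.57 ± 0.17 (edgeR adjusted p = 0.00911, under 2-fold) without replicate 3.

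As a description chosen after the values were seen, the Csf2rb level per length was 1.86 ± 0.227 (SD, n = 3) times that of Csf2ra in unstimulated WT and 4.70 ± 0.431 times in unstimulated IRF5 KO libraries. The lowest IRF5 KO library, at 4.20, was above the highest WT library, at 2.04. After LPS with DMSO the ratio was 1.03 ± 0.0662 in WT, and in IRF5 KO it was 1.68 and 1.67 in replicates 1 and 2 but 4.18 in replicate 3. Under defactinib it was 1.05 ± 0.309 in WT and 2.03 ± 0.296 in IRF5 KO. The ratio of Csf2rb to Csf2rb2 was nearly alike in the unstimulated groups, at 2.08 ± 0.0101 in WT and 2.11 ± 0.0439 in IRF5 KO, and lower in all 12 LPS-stimulated libraries, where it ran from 1.503 to 1.97. Replicate 3 of IRF5 KO with LPS and DMSO gave that highest value, and the next highest stimulated library was at 1.79.

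**Figure D4:**
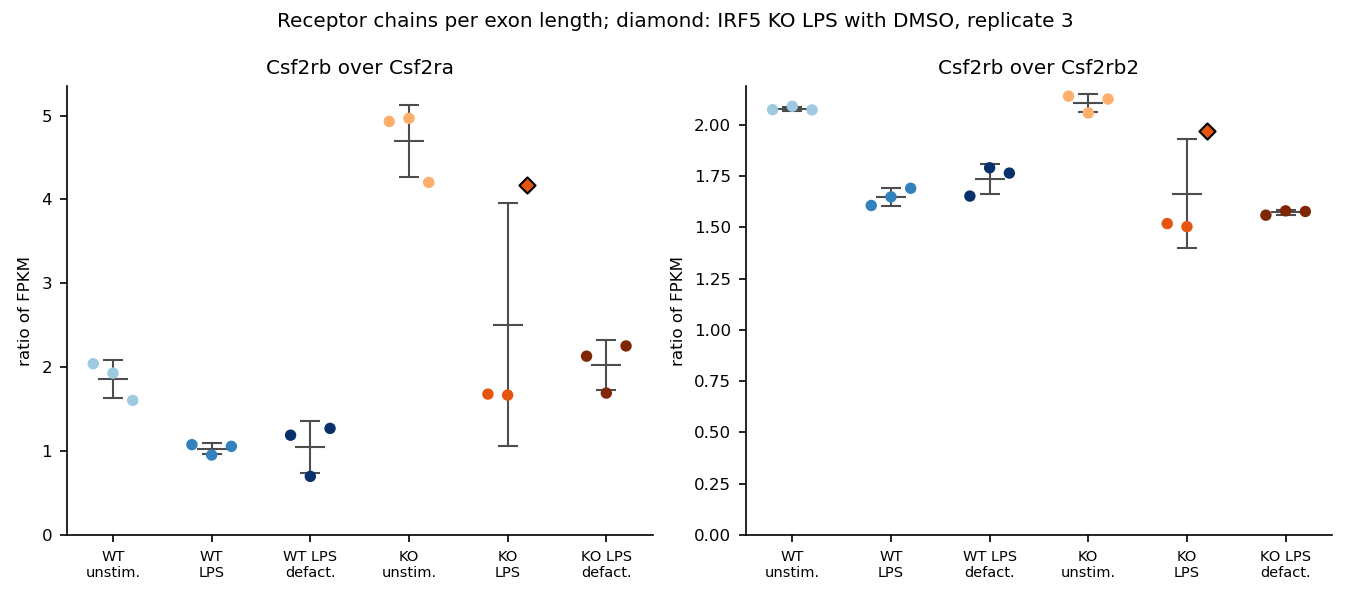
Ratio of the FPKM of Csf2rb to that of Csf2ra (left) and to that of Csf2rb2 (right) in each library, with group mean and SD; axes start at 0. Unstimulated IRF5 KO libraries lie at 4.20 to 4.97 on the left, above the WT libraries at 1.61 to 2.04, and replicate 3 of IRF5 KO with LPS and DMSO (diamond) lies just under them at 4.18.

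Csf1r (ENSMUSG00000024621, chr18:61105572-61132149), the M-CSF receptor gene, was at 852, 856 and 863 CPM in unstimulated WT libraries, at 586, 557 and 646 CPM after LPS with DMSO, and at 692, 649 and 713 CPM after LPS with defactinib. The stimulated libraries were all below the unstimulated ones, and the defactinib libraries were all above those with DMSO by a small margin. LPS gave a log2 difference of -0.52 ± 0.11 (edgeR adjusted p = 0.000825, under 2-fold), and defactinib against DMSO 0.20 ± 0.11 (edgeR adjusted p = 0.116). In IRF5 KO the levels were 1137, 866 and 1185 CPM before LPS, 887, 879 and 773 CPM with LPS and DMSO, and 1199, 1212 and 1153 CPM with LPS and defactinib. Defactinib libraries were all above those with DMSO in IRF5 KO too, with a log2 difference of 0.49 ± 0.11 (edgeR adjusted p = 0.0277, under 2-fold). The IRF5 KO defactinib libraries were above every WT library, and the difference WT minus IRF5 KO under defactinib was -0.80 ± 0.11 (edgeR adjusted p = 2.76e-05), under 2-fold.

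Csf3r (ENSMUSG00000028859, chr4:126024550-126044440), the G-CSF receptor gene, was the only receptor gene to pass the test, in 2 comparisons. It was at 3.09, 3.38 and 3.32 CPM in unstimulated WT, at 4.66, 6.04 and 6.76 CPM after LPS with DMSO and at 6.35, 11.4 and 9.40 CPM after LPS with defactinib. In IRF5 KO it was at 7.87, 6.45 and 8.06 CPM before LPS, at 9.69, 9.70 and 7.16 CPM with LPS and DMSO, and at 13.3, 11.6 and 11.2 CPM with LPS and defactinib. The unstimulated WT libraries were the lowest of all 18. WT was lower than IRF5 KO before LPS by 1.19 ± 0.20 on the log2 scale (edgeR adjusted p = 0.000747), and LPS with defactinib raised Csf3r in WT by 1.47 ± 0.20 over unstimulated cells (edgeR adjusted p = 4.71e-05). LPS with DMSO in WT gave 0.83 ± 0.20 (edgeR adjusted p = 0.00359, under 2-fold). Defactinib against DMSO in WT gave 0.64 ± 0.20 (edgeR adjusted p = 0.0134, under 2-fold), with libraries that overlapped.

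Csf3r is a defining gene of neutrophils. The 10 neutrophil markers summed to 62.9 to 85.7 CPM in unstimulated WT, 122 to 237 CPM after LPS with DMSO and 117 to 168 CPM with defactinib, but to 76.3 to 89.6 CPM in unstimulated IRF5 KO, where Csf3r was at 6.45 to 8.06 CPM against 3.09 to 3.38 CPM in WT. Of the 10, Cxcr2 alone had a lower mean with LPS in WT. It went from 4.89 to 5.77 CPM before LPS to 0.394 to 0.661 CPM with DMSO and 0.409 to 0.848 CPM with defactinib. S100a8 and S100a9 made up most of the unstimulated sums and overlapped between the genotypes. Ly6g, at 0.0562 to 0.103 CPM in WT and 0.212 to 0.577 CPM in IRF5 KO, did not overlap, nor did Retnlg, at 0 to 0.0206 and 0.0779 to 0.138 CPM, Ngp, at 8.39 to 11.96 and 12.08 to 15.87 CPM, or Camp, at 1.10 to 1.32 and 1.34 to 1.56 CPM, and these 4 were higher in IRF5 KO. The summed level of the 8 mast cell and basophil markers was 10.8 to 11.7 CPM in unstimulated WT and 49.4 to 57.5 CPM in unstimulated IRF5 KO. Gata2, at 3.17 to 3.35 and 30.8 to 34.1 CPM, Kit, at 6.29 to 7.31 and 14.97 to 20.8 CPM, and Hdc, at 0.389 to 0.655 and 1.73 to 2.23 CPM, carried that difference, while the other 5 markers, Fcer1a among them, were below 1 CPM and overlapped. The part of either cell type in the level of Csf3r was not tested.

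Between the genotypes, 1 of the 8 members (Csf3r) passed the test in unstimulated cells, where 7.31% of all tested genes did. After LPS with DMSO 2 did (Csf1 higher and Csf2 lower in WT), against 25.8% of all genes, with Csf3 as well by limma-voom and when replicate 3 of IRF5 KO was left out, where 25% and 34.5% of all genes were called, and after LPS with defactinib 2 did (Csf1 and Csf2, both lower in WT), against 17.3%. After LPS with defactinib Csf3 was also called lower in WT with the replicate block and with only the groups compared, where 17.1% and 18.3% of all genes were called. With 8 members these counts are not a result about the family as a whole.

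In order of mean level, Csf1 ran from WT with LPS and DMSO at 490 CPM down to WT with LPS and defactinib at 43.9 CPM. The 4 groups in between, at 139 to 183 CPM, overlapped from each to the next. The 183 CPM belongs to IRF5 KO with LPS and DMSO and includes replicate 3. Replicates 1 and 2 of that group had a mean of 104 CPM, below both unstimulated means. For Csf2 both stimulated IRF5 KO groups, at 5.66 CPM with defactinib and 4.50 CPM with DMSO, were above both stimulated WT groups, at 0.712 and 0.355 CPM. Csf2rb and Csf2rb2 were both highest in unstimulated IRF5 KO, at 3297 and 1514 CPM, and both lowest in WT with LPS and DMSO, at 1305 and 766 CPM. Csf2ra ran from 561 CPM in WT with LPS and defactinib to 275 CPM in unstimulated IRF5 KO, and each group in that order overlapped the next.

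The genes most like each member over the 18 libraries were sought among 8455 genes of at least moderate level by Pearson's r of log2 CPM, given as a description since the libraries share their groups. For Csf1 they were Plagl2 (r = 0.977), Rnf24 (0.975) and Cdkn1b (0.972), and for Csf3 they were Cxcl5 (0.957), Zc3h12a (0.937) and Pwp1 (0.935). Csf2 was most like Tnfsf9 (0.970), Btf3 (0.961) and Cct4 (0.958). Among receptor genes, Csf2rb was most like Spred2 (0.961), Ndst1 (0.958) and Dhrs3 (0.957), and Csf2rb2 most like Ggta1 (0.955), Ahrr (0.953) and Atf7ip (0.936). Csf1r was like Itgb5 (0.915) and Pot1a (0.911), Csf2ra most like Ubxn6 (0.941), Esyt1 (0.927) and Acaa1a (0.92), and Csf3r most like Trmt112-ps2 (0.936), Rnpep (0.921) and Smpdl3a (0.909). Within the family r was 0.929 between Csf2rb and Csf2rb2, 0.783 between Csf1 and Csf3, and -0.76 between Csf2ra and Csf2rb.

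Of 87 other genes of the pathway, listed by role, 84 could be tested; Il3, Il5 and Il34 could not. In WT, LPS with DMSO changed 36 of the 84 (21 higher, 15 lower), or 42.9% against 21.3% of all tested genes, with a median log2 fold change of 0.171 beside -0.00454 over all tested genes. Defactinib against DMSO changed 34 in WT (6 higher, 28 lower), or 40.5% against 29.1%, with a median of -0.272 beside 0.0858 over all genes. In IRF5 KO, 16 changed with LPS and DMSO (9 higher, 7 lower), or 19% against 13.3% of all genes, and 1 with defactinib, the signalling inhibitor gene Spry1 (higher), or 1.19% against 0.919%. Without replicate 3 of IRF5 KO with LPS and DMSO these counts were 28 and 3, where 26.2% and 1.45% of all tested genes were called, and over the other libraries left out in turn the count for defactinib ran from 0 to 3, with 0.125% to 5.55% of all tested genes called. The single lists hold at most 13 genes each, and their shares called in WT ran from 18.2% to 62.5% with LPS and from 25% to 62.5% with defactinib, on both sides of the shares of all genes, so their counts are descriptions of the named genes.

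Among the kinases and STATs that carry the receptor signal, 4 of 11 rose with LPS in WT (36.4%), Stat3, Stat5a and Stat5b among them, and 3 of 11 fell with defactinib (Stat5a, Stat5b and Syk), a share of 27.3% that is near the 29.1% of all tested genes. Stat5a, the factor that GM-CSF receptors activate, was at 121 to 131 CPM before LPS, 939 to 1161 CPM after LPS with DMSO and 93.2 to 137 CPM with defactinib in WT. Its log2 fold changes were 3.05 ± 0.30 with LPS (edgeR adjusted p = 1.41e-06) and -3.26 ± 0.31 with defactinib (edgeR adjusted p = 7.03e-07). In IRF5 KO with LPS and DMSO it was at 171 and 168 CPM in replicates 1 and 2 and at 441 CPM in replicate 3. Of 11 adaptor, PI3K and RAS genes, Pik3r1, a regulatory subunit of PI3K, rose by 2.31 ± 0.38 with LPS and Pik3cd fell, while 3, again 27.3%, fell with defactinib, namely Pik3r1 (-2.52 ± 0.39), Sos1 and Gab2.

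The 13 negative regulators moved in both directions with LPS in WT, 4 higher and 4 lower. Socs3 rose by 2.73 ± 0.31. With defactinib 6 fell and 1 rose, and Socs1 fell from 95.3 to 122 CPM with DMSO to 2.28 to 4.43 CPM, a log2 difference of -4.85 ± 0.87 (edgeR adjusted p = 0.000287). Of 8 STAT5 and survival targets, 3 rose and 2 fell with LPS, and 1 rose and 4 fell with defactinib; Bcl2l1, which protects cells from apoptosis, rose by 2.53 ± 0.27 with LPS, and Osm fell by 4.19 ± 0.55 with defactinib.

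Of 10 genes associated with GM-CSF-grown macrophages, Ccl22 (2.16 ± 0.12) and Il1r2 rose with LPS in WT, and with defactinib 2 rose (Ccl24 and Batf3) and 2 fell (Irf4, at -4.21 ± 0.48, and Il1r2). Of 12 genes associated with M-CSF and the macrophage lineage, 1 rose (Mertk) and 6 fell with LPS, among them Egr2 (-3.19 ± 0.17). With defactinib 1 rose and 2 fell (Maf and Mertk).

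Regulators of AU-rich cytokine mRNAs, a class to which the Csf2 and Csf3 messages belong, gave 3 calls of 8 with LPS in WT, Zc3h12a higher and Zfp36l1 and Zfp36l2 lower. With defactinib Zfp36 rose and Zc3h12a, Zfp36l2 and Rc3h1 fell. Zc3h12a, an RNase that degrades cytokine mRNAs, rose by 3.49 ± 0.29 with LPS and fell by 3.89 ± 0.29 with defactinib. Of 5 genes for shedding of receptors, Furin (1.43 ± 0.23) and Rhbdf2 rose with LPS, and Furin (-3.22 ± 0.24), Rhbdf2 and Timp3 fell with defactinib. Of 6 tested genes for related cytokines and receptor subunits, Il5ra, Flt3 and Kitl rose with LPS and Il5ra and Kitl fell with defactinib; Il5ra was at 0.333 CPM or less in every library.

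**Figure D5:**
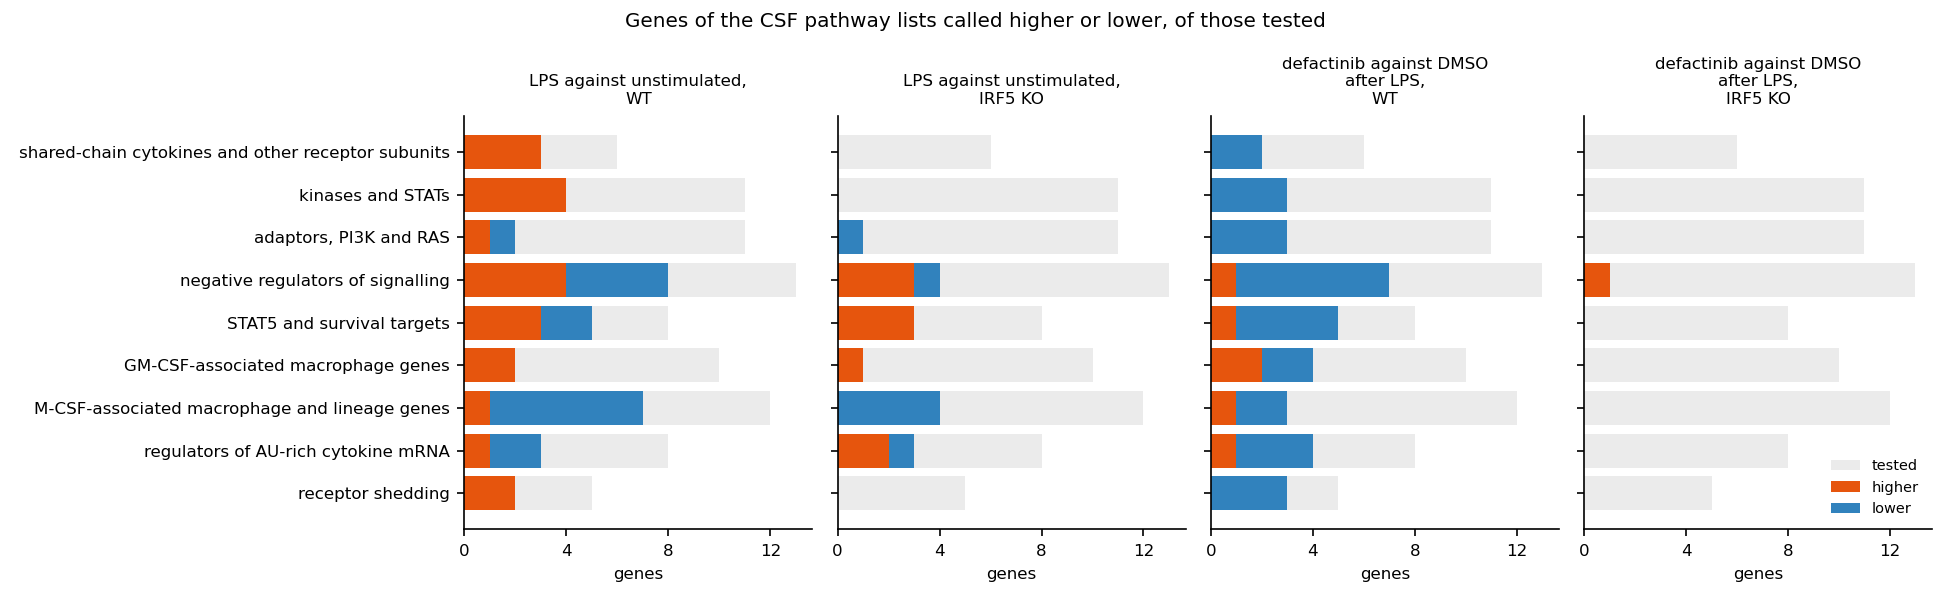
Number of genes of each pathway list called higher (orange) or lower (blue) of those tested (grey), for LPS and for defactinib in each genotype. In WT, defactinib gave 28 calls lower and 6 higher over the lists, and in IRF5 KO it gave 1.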

How the data were processed

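mRNA-seq of 18 libraries was used, each mapped to its group by its labels. According to the methods and the header of the table, the authors aligned read pairs to mm10 with STAR, counted uniquely mapped pairs per gene over exons with featureCounts 1.6.3, reverse stranded, and deposited raw counts with no normalization. Counting by strand separates members from genes on the opposite strand (Csf1r and Hmgxb3, Csf2 and Gm12223). The 8 members and all gene lists were chosen with earlier results of these data known.

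Counts were filtered by expression over the 6 groups (15663 genes kept), scaled by TMM and fitted with 1 mean per group over all libraries in edgeR 4.0.16 (R 4.3.3; glmQLFit, robust, and glmQLFTest, two-sided). p-values were adjusted over all tested genes by Benjamini-Hochberg, and a gene was called at an adjusted p under 0.05 and a fold change above 2. CPM used TMM-scaled totals, and FPKM divided these by exon length. SE was the log2 fold change divided by the root of F. Named genes were the members, the gene of each role list with the largest change with LPS or defactinib in WT, any gene behind a count of 5 or fewer, and the 3 genes most like each member. Some genes that this rule names are not reported here. Replicate numbers were not taken as pairs, since same-numbered libraries had a median residual correlation of 0.00455 over 45 pairs, above 0.1 in 4. No pair of libraries in a group agreed within sampling noise (chi-square per gene from 2.33). The closest pair was replicates 1 and 2 of IRF5 KO with LPS and DMSO, at 2.33, against 441 and 425 for each of them with replicate 3. Fits without replicate 3 rest on that pair in this group, and whether the pair shares a mouse is not known, so their small p-values may reflect technical spread. The code was tested on simulated data. Alternatives were DESeq2 1.42.0, limma-voom (limma 3.58.1), other scaling, filters and thresholds, a replicate block, only the groups compared, and leaving out each library.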

Additional observations from a re-analysis of the deposited data

Results flagged for a closer look

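Csf1 and Csf3 differed between the genotypes in their response to defactinib by a test of the difference itself (interaction of genotype with defactinib, edgeR quasi-likelihood test). For Csf1 the log2 fold change of defactinib against DMSO in WT minus that in IRF5 KO was -3.28 (edgeR adjusted p = 0.000151), with all 3 WT libraries lower with defactinib and the IRF5 KO libraries overlapping. For Csf3 it was -3.01 (edgeR adjusted p = 0.0244), with the same overlap in IRF5 KO. Replicate 3 of IRF5 KO with LPS and DMSO is high in both genes, and without it the values were -4.10 and -5.08. The overlap rests on that library, since replicates 1 and 2 lay below every IRF5 KO defactinib library in both genes. Without replicate 3, defactinib against DMSO in IRF5 KO was 0.62 for Csf1 (edgeR adjusted p = 0.0407, under 2-fold) and 1.58 for Csf3 (edgeR adjusted p = 0.0225). Over all alternatives the call for Csf1 held, and that for Csf3 was lost without replicate 2 of WT with LPS and defactinib (edgeR adjusted p = 0.0645) and with only the groups compared (edgeR adjusted p = 0.0635).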

How the results depend on the processing

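Over 28 alternatives, 52 of the 88 fold changes of members kept their direction where called and their side of the threshold, as did 15 of the 19 calls. DESeq2 gave Csf3 no adjusted p, and the filter of 5 CPM left it untested, so these settings could not give its values. With only the groups compared, Csf2 was not tested for LPS in WT or between the unstimulated genotypes. Csf2 and Csf3 rest on few counts, which limits their precision. Scaling by library size alone shifted the median log2 fold change by -0.379 for LPS in WT, and with it Csf2rb was called lower there (-1.11) and for LPS with defactinib in IRF5 KO (-1.07), while Csf3 lost its call in the latter (1.71, edgeR adjusted p = 0.0693). Counts of members called with DESeq2 or the filter of 5 CPM leave out Csf3, which has no adjusted p there. The causes of the other changes below were not tested.

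Without a fold threshold the members called were 7 for LPS in WT (beside 41.8% of all genes called), 4 for LPS in IRF5 KO (37.5%), 1 for defactinib in IRF5 KO (3.36%), 5 for LPS with defactinib against unstimulated in each genotype (53.2% in WT, 53.4% in IRF5 KO), 4 between unstimulated genotypes (15.3%), 6 between genotypes after LPS and DMSO (52.2%) and 5 after LPS and defactinib (36.3%). For defactinib in WT, Csf3r was called as well without a fold threshold (0.64, edgeR adjusted p = 0.0134, beside 57.0% of all genes). For LPS in IRF5 KO 1 member was called with the filter of 5 CPM (beside 10.3% of all genes), with DESeq2 (14%), with limma-voom (13.9%) and with only the groups compared (1.08%). Likewise 1 was called for defactinib in WT (5 CPM, 26.7%; DESeq2, 28.8%), for LPS with defactinib in IRF5 KO (no filter, 14.4%; 5 CPM, 21.2%; DESeq2, 23.7%), for WT against IRF5 KO after LPS and DMSO (only the groups compared, 19.5%), and for the interaction with defactinib (5 CPM, 24.2%; DESeq2, 24.1%; only the groups compared, 19.4%). For the interaction with LPS 1 was called with DESeq2 size factors (10.1%), the filter of 5 CPM (11.8%), DESeq2 (12.6%) and limma-voom (12.1%). With only the groups compared, Csf1 between genotypes after LPS and DMSO was 1.37 (edgeR adjusted p = 0.0795).

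Pathway genes called for LPS in IRF5 KO were 43 without a fold threshold (37.5%) and 3 with only the groups compared (1.08% of all genes). For defactinib in IRF5 KO they were 0 with library size alone (1.34% of all genes), 2 with DESeq2 (3.66%), 4 without a fold threshold (3.36%) and 0 with only the groups compared (0.0635%). Between genotypes after LPS and DMSO they were 29 with the fold threshold, where 25.8% of all genes were called, and 52 without it, where 52.2% were. With replicate 3 as the lone library of IRF5 KO with LPS and DMSO, an alternative chosen after seeing the data, 3 members and 19 pathway genes were called for defactinib in IRF5 KO (19.2% of all genes), and 8 pathway genes for LPS (2.71%).

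Leaving out each library in turn, the members called ranged from 1 to 2 for LPS in IRF5 KO (beside 6.46% to 26.2% of all genes), from 0 to 1 for defactinib in IRF5 KO (0.125% to 5.55%), from 1 to 2 for LPS with defactinib in IRF5 KO (21.7% to 25.3%), from 0 to 2 for the interaction with LPS (6.65% to 23.6%) and from 1 to 2 for that with defactinib (20.2% to 31.6%). Pathway genes ranged from 12 to 28 for LPS and from 0 to 3 for defactinib in IRF5 KO. The fold change of Csf3 with defactinib in IRF5 KO turned to 1.58 without replicate 3 of IRF5 KO with LPS and DMSO.

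The replicate numbers did not pair the libraries: same-numbered libraries of different groups had a median residual correlation of 0.00455 over 45 pairs of libraries. With the replicate block 1 member was called for the interaction with LPS (beside 10.6% of all genes), Csf1 at 1.61 (edgeR adjusted p = 0.0205), and Csf3 was called between genotypes after LPS and defactinib (-1.94, edgeR adjusted p = 0.0396), where the difference without the block was -1.87 (edgeR adjusted p = 0.0593). That difference was also called with only the groups compared (edgeR adjusted p = 0.00593), without replicate 1, 2 or 3 of IRF5 KO with LPS and DMSO (edgeR adjusted p = 0.0300, 0.0308 and 0.000291) and with replicate 3 as its lone library (edgeR adjusted p = 0.000385). The block changed no other call of a member.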
